A study of Macaca mulatta with 30 samples.

Results

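DNTT, RAG2 and PTCRA are genes of immature lymphocytes that assemble and first use an antigen receptor. They were chosen by name, and every probeset that the platform annotation assigns to 1 of these symbols alone was taken. This gave 3 of 14133 genes and 4 of 24969 probesets with 1 symbol, on a GeneChip of 52865 probesets. RAG2 and PTCRA had 1 probeset each. DNTT had 2, MmugDNA.41966.1.S1_at (the MmugDNA probeset) and MmuSTS.2582.1.S1_at (the MmuSTS probeset), which report on the same gene and are not independent.

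Rhesus macaque RNA came from cerebral cortex, pancreas, testis and thymus and from an immortalized fibroblast cell line, and the labels name no treatment. The cortex RNA was from Yerkes, the fibroblast RNA from Nebraska and the other 3 from Oregon, and the labels give no age or sex of the animals. Oregon, Nebraska and Yerkes (the centers) each labeled 2 aliquots of every RNA and hybridized each aliquot with its own rhesus GeneChip, which gave 30 arrays and 6 per tissue. All p-values therefore describe the spread of labeling and hybridization of 1 RNA per tissue, not the spread between animals.

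Developing T and B cells build their receptor genes by V(D)J recombination, in which the recombinase formed by RAG1 and RAG2 cuts the DNA and the end-joining machinery repairs it. DNTT, the terminal deoxynucleotidyl transferase, adds nucleotides without a template at the joints and so widens the range of receptors. PTCRA is the invariant pre-T-cell receptor alpha chain, which pairs with a newly rearranged beta chain on immature thymocytes.

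Values are log2 signals, and levels are compared between arrays of the same probeset. The mean signal of an array was 6.317 to 6.333 for the Oregon arrays, 6.349 to 6.385 for those of Nebraska and 6.898 to 6.927 for those of Yerkes, so center was a term of the limma fit. In each of the other 4 sources, 4 of 4 marker genes of that tissue were higher than in every other tissue. In thymus, 5 of 5 measured thymocyte markers were. A probeset was called higher in thymus where its contrast with every other tissue was above 0 and had an adjusted p under 0.05.

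The 3 genes were far higher in thymus than in any other tissue. Each of the 4 probesets was called higher in thymus, against 12.5% of all probesets. By gene, with the probeset of highest mean signal standing for each, all 3 were called, against 12.6% of genes. The difference from the highest other tissue was 10.04-fold for PTCRA, 18.7-fold for RAG2, and 18.9-fold and 21.3-fold for the MmugDNA and MmuSTS probesets of DNTT. Over all probesets, the median log2 difference between thymus and the highest other tissue was -0.45. In bulk tissue, fewer cells of a type and less RNA per cell cannot be told apart.

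**Figure D1:**
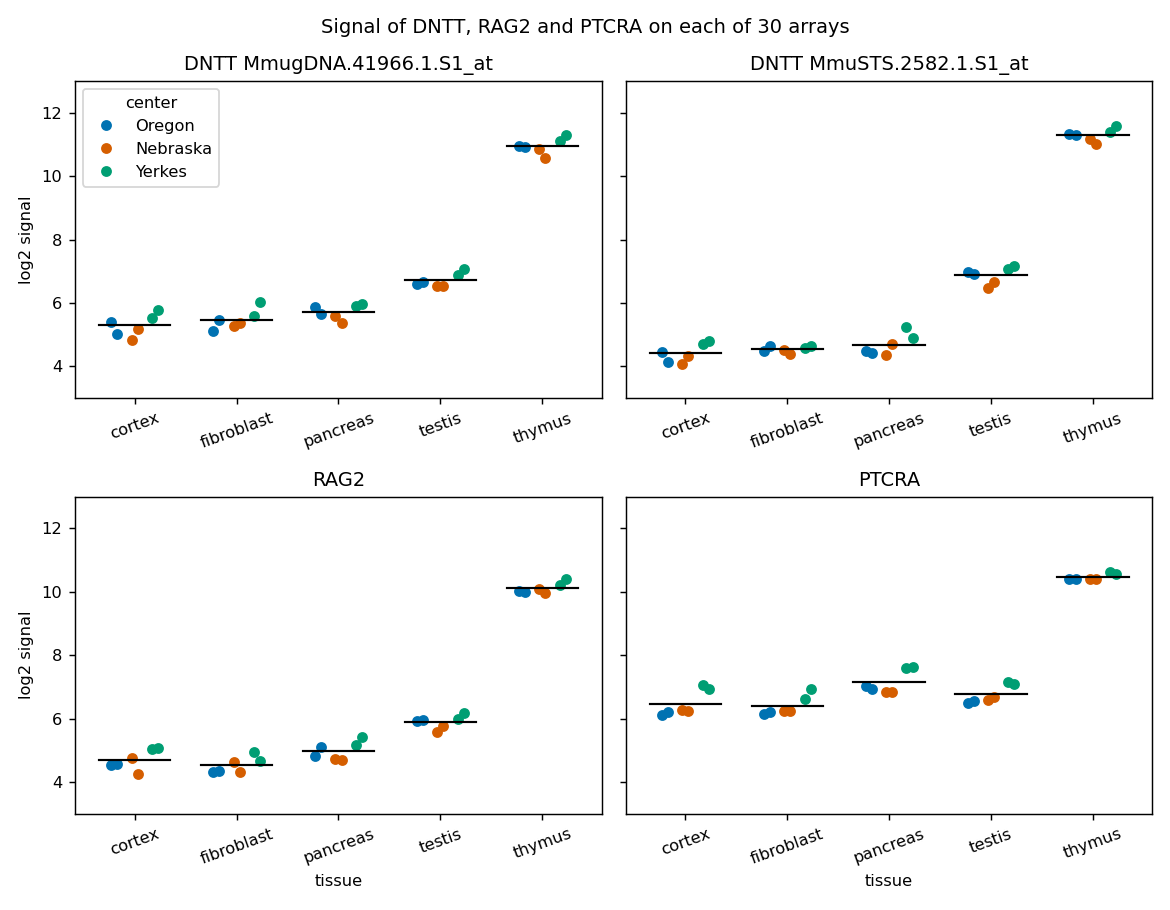
Log2 signal (y axis) of each probeset by tissue (x axis), with each point 1 array colored by center and each line the mean of 6 arrays. The thymus arrays lie between 9.97 and 11.57 and every other array lies at or below 7.62.

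DNTT was measured first by its MmugDNA probeset. The thymus aliquots gave 10.96 and 10.91 from Oregon, 10.87 and 10.57 from Nebraska and 11.10 and 11.29 from Yerkes. In testis the lowest, median and highest arrays were at 6.52, 6.63 and 7.07. The lowest thymus array thus stood above the highest testis array, and testis was the next tissue at every center. The values were 5.37, 5.75 and 5.95 in pancreas, 5.12, 5.41 and 6.02 in fibroblast and 4.82, 5.28 and 5.78 in cerebral cortex. These last 3 tissues overlapped one another and lay below testis on every array. Thymus exceeded testis by 4.24 (SE 0.09, adjusted p = 9.58e-28, limma), pancreas by 5.23, fibroblast by 5.48 and cortex by 5.66.

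The MmuSTS probeset of DNTT gave the same order of tissues. Its thymus aliquots read 11.32 and 11.29 from Oregon, 11.17 and 11.01 from Nebraska and 11.40 and 11.57 from Yerkes. In testis the lowest, median and highest arrays were at 6.48, 6.94 and 7.18. Thymus and testis did not overlap each other or any other tissue. The other arrays were at 4.36, 4.59 and 5.24 in pancreas, 4.38, 4.54 and 4.65 in fibroblast and 4.06, 4.39 and 4.81 in cortex. Thymus exceeded testis by 4.41 (SE 0.09, adjusted p = 7.21e-28, limma), pancreas by 6.61, fibroblast by 6.75 and cortex by 6.88. In pancreas, fibroblast and cortex this probeset lay between percentiles 2.72 and 8.53 of all probesets of its array. Signal over background was not analysed, so the sizes of these last 3 differences are not exact.

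RAG2, the partner of RAG1 in the recombinase, read 10.03 and 10.01 in the Oregon aliquots of thymus, 10.09 and 9.97 in those of Nebraska and 10.23 and 10.41 in those of Yerkes. Testis arrays had a lowest, median and highest value of 5.56, 5.94 and 6.19. Thymus again stood apart and testis again came next, without overlap with any other tissue. The values were 4.68, 4.95 and 5.41 in pancreas, 4.24, 4.66 and 5.08 in cortex and 4.31, 4.48 and 4.94 in fibroblast. Thymus exceeded testis by 4.22 (SE 0.09, adjusted p = 8.24e-28, limma), pancreas by 5.14, cortex by 5.42 and fibroblast by 5.59. RAG1, which lies beside RAG2 in the genome and is needed for the cut, had no probeset of its own symbol and was not analysed here.

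PTCRA differed from the other genes in its order of tissues. Its thymus signals were 10.42 and 10.41 from Oregon, 10.40 and 10.39 from Nebraska and 10.63 and 10.55 from Yerkes. Pancreas, the next tissue, gave 7.02 and 6.94 from Oregon, 6.83 and 6.83 from Nebraska and 7.59 and 7.62 from Yerkes. All thymus arrays were above all pancreas arrays, and the Yerkes arrays were the highest in each tissue. The lowest, median and highest values were 6.49, 6.64 and 7.14 in testis, 6.12, 6.25 and 7.06 in cortex and 6.13, 6.25 and 6.93 in fibroblast. Here pancreas, testis, cortex and fibroblast overlapped. Thymus exceeded pancreas by 3.33 (SE 0.08, adjusted p = 1.36e-26, limma), testis by 3.70, cortex by 3.99 and fibroblast by 4.07.

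**Figure D2:**
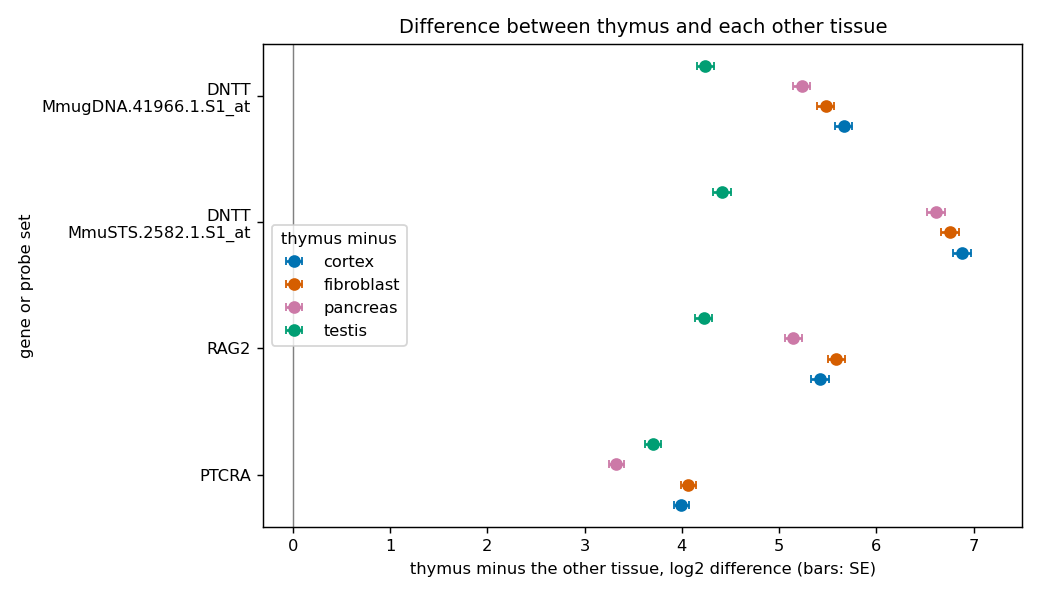
Log2 difference between thymus and each other tissue (x axis) for each probeset (y axis), with points from the limma fit of 30 arrays and bars of 1 SE. Testis lies closest to thymus for DNTT and RAG2, at 4.22 to 4.41, and pancreas for PTCRA, at 3.33.

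The place of each probeset among all probesets of an array, which also holds its own probe affinity and does not rank the genes, was taken in each tissue. In thymus the MmugDNA probeset of DNTT lay between percentiles 98.5 and 99.0 of all probesets of the same array, the MmuSTS probeset between 99.0 and 99.3, RAG2 between 97.3 and 97.6 and PTCRA between 98.0 and 98.3. Outside thymus, RAG2 was below the array median on 24 of 24 arrays. Each DNTT probeset was below it on 18 of 24 arrays, the exceptions being the 6 of testis. PTCRA was above the median on all 24. In pancreas, cortex and fibroblast RAG2 lay between percentiles 2.87 and 14.7, so its differences from these tissues are not exact in size either. Ranked by the difference between thymus and the highest other tissue, DNTT was at place 11, RAG2 at 14 and PTCRA at 49 of 14133 genes.

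A 2nd question was whether the tissues outside thymus differed from each other. Testis was above cortex, fibroblast and pancreas for 3 of the 4 probesets, both of DNTT and that of RAG2, against 14.6% of all probesets. The step from pancreas up to testis was 0.99 (SE 0.09, adjusted p = 1.34e-11, limma) for the MmugDNA probeset and 2.20 (SE 0.09, adjusted p = 7.48e-20) for the MmuSTS probeset of DNTT, and 0.92 (SE 0.09, adjusted p = 5.65e-11) for RAG2. Over all probesets, the median difference between testis and pancreas was -0.19. Within Oregon, Nebraska and Yerkes the step was 0.87, 1.05 and 1.05 for the MmugDNA probeset, 2.50, 2.04 and 2.05 for the MmuSTS probeset and 0.99, 0.96 and 0.81 for RAG2. The largest adjusted p of these within-center values was 0.000586 (limma).

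Some other thymocyte genes were also higher in testis. Of the 5 measured thymocyte markers, 4 were above cortex, fibroblast and pancreas in testis, where 2254 of all 14133 genes were. These were the T cell coreceptor chain CD8B, at a mean of 7.20, the lipid antigen presenting molecules CD1A, at 7.67, and CD1B, at 8.09, and the transcription factor TCF7, at 7.53. In that order they exceeded the highest of the 3 tissues by 0.43, 1.18, 1.90 and 0.48. BCL11B, a transcription factor of T cell commitment, was at 5.28 in testis and 5.46 in cortex. The lists given below share genes with these markers. There testis was above the 3 tissues for 6 of 10 genes of the receptor complex and its signaling. It was so for 4 of 20 early T lineage regulators and 3 of 8 cortical surface markers, to be read against the same 2254 of 14133 genes. In the order of these lists, 5, 3 and 2 of the genes were also called higher in thymus, as were 469 of the 2254. LAT, TCF3 and CD1E were not, by their probesets of highest mean. The summed linear signal of the 5 markers was 732 to 1090 over the testis arrays, 207 to 494 over those of cortex, fibroblast and pancreas, and 13577 to 20053 in thymus. The part of these markers in the testis signal of DNTT and RAG2 was not tested.

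The testis signal was also set against that of thymus on the linear scale. For each center, the mean of cortex and fibroblast was subtracted from testis and from thymus, and the 1st remainder was given as a percentage of the 2nd, a measure chosen after the values were seen. It was 3.23% ± 0.14 (SD, n = 3 centers) for the MmugDNA and 3.84% ± 0.29 for the MmuSTS probeset of DNTT, 3.22% ± 0.60 for RAG2 and 1.61% ± 0.23 for PTCRA. DNTT and RAG2 thus gave like percentages, the range of each DNTT probeset over centers overlapping that of RAG2, and PTCRA a lower value than either at each center. Of the listed genes of thymocytes and other cells, 27 exceeded every other tissue in thymus by at least 2 log2 units, and their median was 2.79% with quartiles of 1.77% and 5.01%. The coreceptor chain CD8A was at 3.03%, CD1A at 3.73%, the T cell adaptor TRAT1 at 2.79% and TCF7 at 2.69%. Over all 158 genes with such a difference, which include these 27 but not the 3 members, the median was 3.03%. The percentages of DNTT and RAG2 lay within the quartiles of the 27 listed genes. These genes were chosen from the same data by a difference that itself limits the percentage in testis or pancreas. Such a placing is therefore a description and not a test.

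In pancreas the same measure gave 0.548% ± 0.258 (SD, n = 3 centers) and 0.146% ± 0.144 for the DNTT probesets, 0.636% ± 0.301 for RAG2 and 4.16% ± 1.18 for PTCRA. By center, PTCRA gave 4.18% with the Oregon arrays, 2.98% with those of Nebraska and 5.33% with those of Yerkes. The 27 listed genes had a median of 0.765% in pancreas, with quartiles of 0.455% and 3.88%. The 158 genes that include them had a median of 1.72%, with quartiles of -0.509% and 4.18%. By its mean over centers, PTCRA thus lay above the quartiles of the listed genes and within those of all genes with such a difference. Its values by center, 2.98% to 5.33%, lay on both sides of each upper quartile, so this placing is not settled. CD1C, another CD1 molecule of immature thymocytes and dendritic cells, was at 4.36%.

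**Figure D3:**
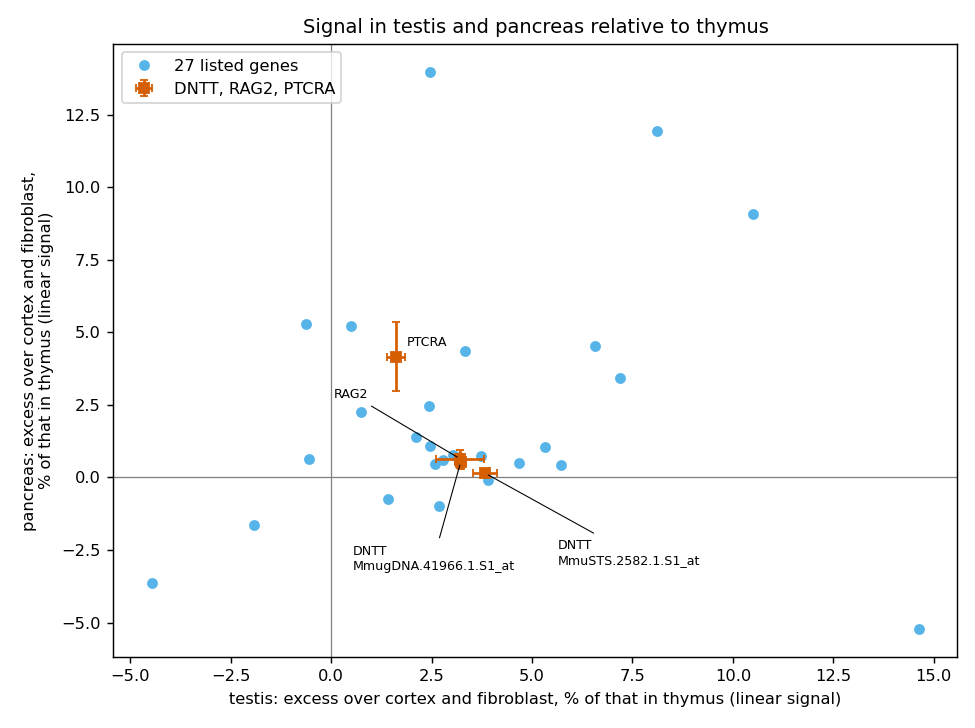
Linear signal above the mean of cortex and fibroblast, as a percentage of the same remainder in thymus, for testis (x axis) and pancreas (y axis), with bars of 1 SD over 3 centers for the 4 probesets. DNTT and RAG2 lie at 3.22% to 3.84% for testis and below 1% for pancreas, where PTCRA lies at 1.61% and 4.16%.

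Pancreas was above cortex, fibroblast and testis for PTCRA alone of the 4 probesets, against 28.3% of all probesets. The pancreas arrays are those that the study marked as lower in quality. PTCRA was higher in pancreas than in testis by 0.38 (SE 0.08, adjusted p = 6.46e-05, limma), although arrays of these tissues overlapped across centers. Within centers the difference was 0.45 at Oregon (adjusted p = 0.000423, limma), 0.19 at Nebraska (adjusted p = 0.0871) and 0.49 at Yerkes (adjusted p = 0.00306). Pancreas was higher at each center, but the call was not reached at Nebraska or, with no center term, over all arrays (adjusted p = 0.0802). PTCRA in pancreas was above cortex by 0.67 and above fibroblast by 0.74, where all probesets had medians of 0.19 and 0.19. Quantile normalization of all 30 arrays together brought these medians to 0.12 and 0.07, and PTCRA was then 0.76 above cortex and 0.74 above fibroblast. Its difference between pancreas and testis was 0.51 under this setting (adjusted p = 2.57e-08, limma). Without the pancreas arrays, PTCRA in thymus was 3.70 above the highest other tissue.

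At the low end of each order, neighbours were often not told apart. Fibroblast and cortex differed for 0 of the 4 probesets by limma, and for 1 of 4 at an unadjusted p under 0.05, against 60.1% of all probesets at an adjusted p under 0.05. Pancreas and cortex differed for 4 of 4, against 76.1%. Pancreas and fibroblast differed for 3 of 4, against 77.7%, the exception being the MmuSTS probeset of DNTT at 0.14 (SE 0.09, adjusted p = 0.150). Testis and cortex differed for 4 of 4, against 68.8%, with PTCRA at 0.29 (adjusted p = 0.00171). The small steps did not hold under every setting. That between pancreas and fibroblast for the MmugDNA probeset, 0.25 (adjusted p = 0.0130), was 0.04 after quantile normalization of all arrays (adjusted p = 0.710), and its adjusted p was 0.0641 with the arrays of a tissue at a center as a random block. That between pancreas and cortex for RAG2, 0.27 (adjusted p = 0.00581), was 0.14 (adjusted p = 0.187). For PTCRA, the step between testis and cortex had an adjusted p of 0.248 with no center term. In the other direction, the step between fibroblast and cortex for the MmugDNA probeset, 0.18 (adjusted p = 0.0748, limma), became called after quantile normalization of all arrays. It was then 0.24 (adjusted p = 0.0197, limma).

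Whether the tissue differences depended on the center was tested as an interaction of 8 terms. The steps from thymus to the highest other tissue were, in the order Oregon, Nebraska and Yerkes, 4.31, 4.19 and 4.22 for the MmugDNA probeset, and 4.36, 4.51 and 4.37 for the MmuSTS probeset of DNTT. RAG2 gave 4.08, 4.37 and 4.22. PTCRA gave 3.43 (SE 0.07), 3.56 (SE 0.09) and 2.98 (SE 0.11), with the lowest value at Yerkes. PTCRA was the 1 of 4 probesets that passed the interaction test, against 28.3% of all probesets, with F = 5.45 and an adjusted p of 0.00736 (limma). The adjusted p was 0.811 and 0.161 for the DNTT probesets and 0.490 for RAG2. After quantile normalization of all 30 arrays, PTCRA no longer passed (adjusted p = 0.130).

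**Figure D4:**
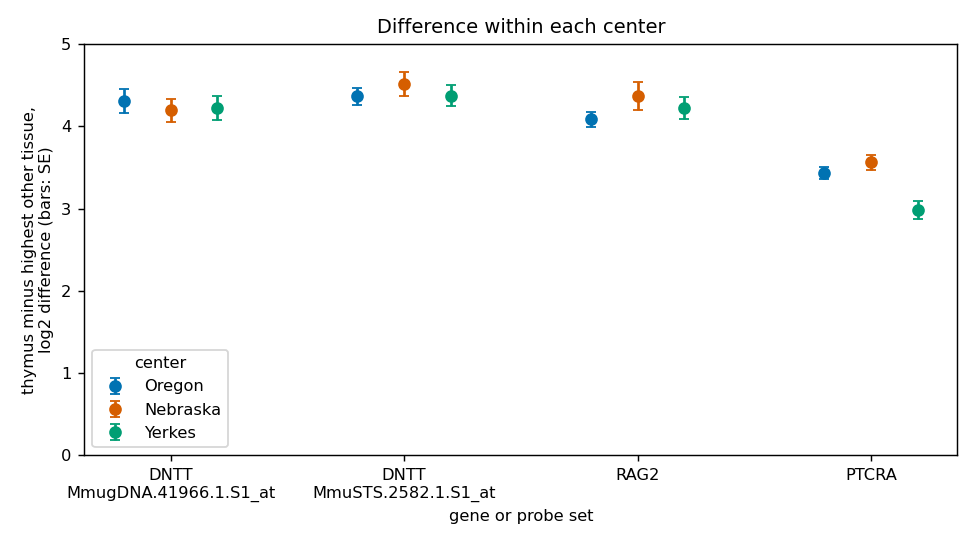
Log2 difference between thymus and the highest other tissue (y axis) for each probeset (x axis), fitted within each center, with bars of 1 SE. DNTT and RAG2 lie between 4.08 and 4.51 at every center, and PTCRA lies at 3.56 for Nebraska and 2.98 for Yerkes.

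The PTCRA values behind this test were uneven at Yerkes. Its Yerkes arrays exceeded the mean of the other centers by 0.19 in thymus, 0.54 in testis, 0.57 in fibroblast, 0.70 in pancreas and 0.78 in cortex. Probesets within 0.5 of the same signal in the same tissue had median excesses at Yerkes of 0.29 in thymus, 0.61 in pancreas and 0.70 in cortex. Probesets of like signal thus also had a smaller Yerkes excess in thymus, where that signal was 10.47, than in pancreas (7.14) and cortex (6.47). Tissue and signal level change together in this comparison and cannot be told apart by it. The part of this in the PTCRA interaction was not tested. Tissue accounted for 96.6% of the variance of PTCRA over the 30 arrays and center for 2.82%. For RAG2 these shares were 98.8% and 0.813%, and the medians over all probesets were 49.4% and 38.6%. The largest difference between 2 aliquots of thymus at a center was 0.30 and 0.17 for the DNTT probesets, 0.18 for RAG2 and 0.08 for PTCRA.

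The genes were then placed among those that act with them. Of 18 listed genes of V(D)J recombination and end joining, 13 were measured, and RAG2 and DNTT were at the top of them. Of the 11 others, 3 were called higher in thymus, where 12.6% of all genes were, and 2 lower than in each other tissue, where 9.3% of all genes were. Their median difference from the highest other tissue was 0.10, against -0.58 over all genes. HMGB2, a DNA-bending protein that assists the recombinase, was higher by 2.27 (SE 0.09), the related HMGB1 by 1.11 (SE 0.11), and PRKDC, the catalytic subunit of the DNA-dependent protein kinase, by 0.40 (SE 0.08). DCLRE1C, the Artemis nuclease that opens the hairpin ends, was at 6.41 in thymus and at 7.23 or above elsewhere. Its 3 probesets disagreed, 2 being called lower and MmuSTS.4412.1.S1_at higher, by 0.91 (SE 0.10). POLL, the DNA polymerase of the same family as DNTT that was measured here, was at 7.36 in thymus and at 8.44 or above elsewhere. XRCC4 (0.10), XRCC5 (-0.04), XRCC6 (0.06), NHEJ1 (0.14), PAXX (-0.48) and TP53BP1 (0.10), which serve the repair of breaks in most cells, did not pass, although 1 of the 2 probesets of XRCC4 and of XRCC5 did. With the probeset of largest range standing for each gene, 5 of the 11 were called.

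Around PTCRA, 9 of 10 other measured genes of the receptor complex and its proximal signaling were called higher in thymus, against 12.6% of all genes, with a median difference of 3.70. TRAT1, the adaptor SH2D1A, CD8A and CD8B exceeded the next tissue by 4.53, 4.49, 4.52 and 4.25. The phosphatase PTPRC (CD45) did so by 3.80, the adaptor LCP2 by 3.60, the coreceptor CD4 by 2.66, the kinase ZAP70 by 2.25 and the exchange factor RASGRP1 by 1.06. The adaptor LAT did not pass by its probeset of highest mean, at 10.09 in thymus and 10.41 in testis, but 1 of its 4 probesets was called, by 3.22 (SE 0.08). With the probeset of largest range, all 10 were called. Testis was the next tissue for 6 of these 9 called genes, and pancreas for CD4 and SH2D1A.

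Of 20 measured transcription factors and regulators of early T lineage cells, 13 were called higher in thymus and 0 lower than in every other tissue, where 12.6% and 9.3% of all genes were, with a median of 0.77. The highest were TCF7 (4.43), GATA3 (4.29), MYB (4.13), the Notch target DTX1 (3.47), TOX (2.94), BCL11B (2.54) and IKZF1 (2.32), which encodes Ikaros. TCF3, which encodes the E proteins that activate the RAG genes and PTCRA, was at 8.02 in thymus and 8.14 in testis. Its relative TCF12 was at 7.38 in thymus and 9.72 in fibroblast, and HES1, another Notch target, at 6.39 and 7.10 in the same tissues. For TCF3, 1 of 7 probesets was called higher in thymus and 3 lower. SATB1, a chromatin organizer of thymocytes, did not pass by its probeset of highest mean (-1.29), but its 3 other probesets did, by 3.65 to 4.42. LMO2, HHEX and RUNX3 passed with no probeset. Of 8 measured surface markers of cortical thymocytes 6 were called, led by CD1A (4.24), CD1B (4.15) and CD1C (3.24), and not CD99 (-2.37). CD1E differed by -0.16 by its probeset of highest mean, and its 2 other probesets were called, by 3.64 and 4.33, so that 7 of 8 were called with the probeset of largest range. Of the 80 measured genes of all lists other than the members, 8 were not called although another of their probesets was, and 10 were called although another was not.

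**Figure D5:**
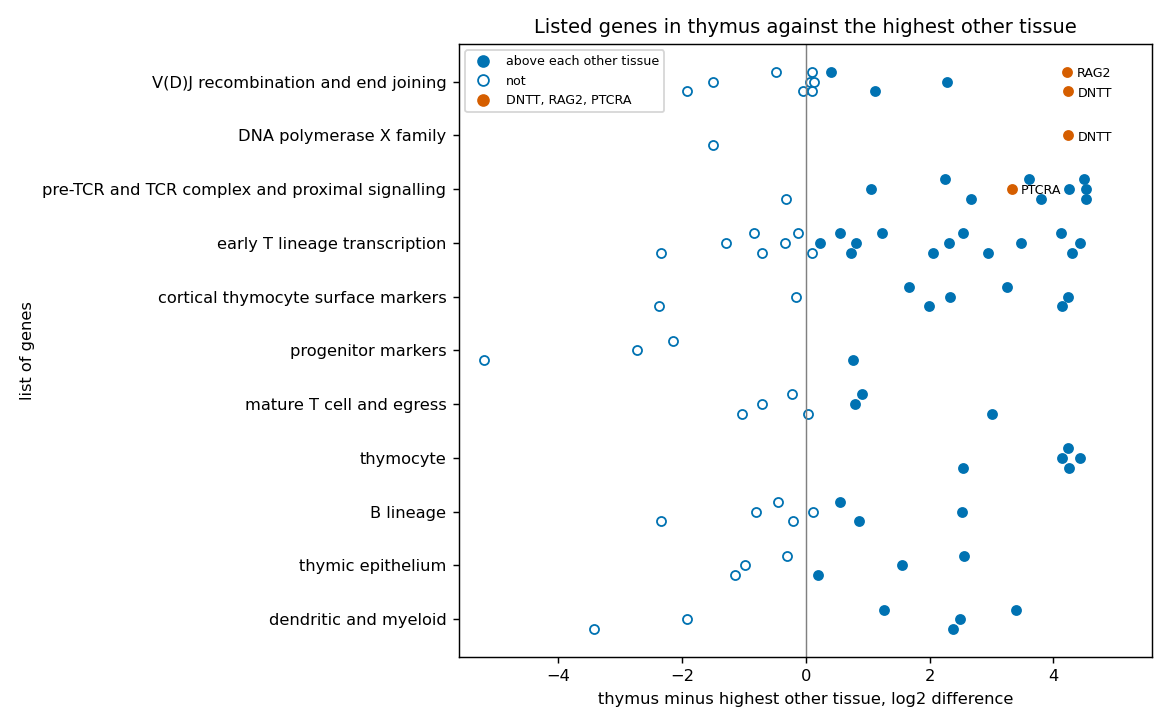
Measured genes of each list (y axis) by how far thymus lay from the highest other tissue in log2 units (x axis), filled where thymus was above every other tissue at an adjusted p under 0.05. DNTT and RAG2 lie at 4.24 and 4.22 and PTCRA at 3.33, while the other genes of V(D)J recombination lie between -1.92 and 2.27, each by its probeset of highest mean signal.

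Genes of earlier and later stages of T cells and of other cells were listed as well, to be read against the 12.6% of all genes called higher in thymus. Of 4 measured progenitor markers, the receptor FLT3 was called (0.76), and PROM1 was lower in thymus than in each other tissue. A filter that kept the upper part of mean signal removed FLT3, which was not tested under it. KIT and MEF2C were highest in cortex, and thymus differed from it by -2.15 and -5.20. Of 7 measured genes of mature T cells and egress 3 were called: the activation marker CD69 (3.01), the homing receptor CCR7 (0.90) and the costimulatory receptor CD28 (0.79). The other probesets of CD28 were called by 1.43 and 3.02, and those of CD69 by 1.41 and 3.88. FOXP3 and IL2RA differed by -0.22 and 0.04.

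The B lineage also uses RAG2 and DNTT. Of 8 measured B lineage markers, 3 were called higher in thymus: MS4A1 (CD20) by 2.53, the adaptor BLNK by 0.87 and the surrogate light chain gene IGLL1 by 0.55. VPREB1, the other surrogate light chain gene and a marker of B cell precursors, was at 5.83 in thymus and 6.27 in pancreas. CD79A and CD79B differed by -0.21 and 0.12, and CD22 and EBF1 by -0.81 and -2.33. The other probeset of EBF1 was called lower in thymus than in each other tissue. The summed linear signal of the 8 markers was 1062 to 1452 in thymus and 451 to 1180 in the other tissues. MS4A1 and BLNK fell below a filter that kept the upper part of mean signal and were not tested under it. That filter left 1 of the 8 called, and leaving out the pancreas arrays gave 5.

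PTCRA is also known from plasmacytoid dendritic cells. Of 6 measured dendritic and myeloid markers 4 were called higher in thymus: LYZ by 3.40, GZMB by 2.48, IRF8 by 2.38 and IRF7 by 1.27. Another probeset of IRF8 was at 5.22 in thymus and 9.81 in cortex (-4.59), and the other probeset of IRF7 differed by -0.25. Neither was called. TCF4, the E protein of plasmacytoid dendritic cells, was at 7.28 in thymus and 9.20 in cortex. The macrophage gene CD68 differed by -3.42, and by -0.01 with its other probeset. With the probeset of largest range standing for each gene, 3 of the 6 were called. The summed linear signal of the 6 was 3203 to 3977 in thymus, 1489 to 1876 in cortex, 822 to 1173 in testis, 539 to 776 in pancreas and 514 to 769 in fibroblast. Of 6 measured genes of thymic epithelium, PAX1 (2.56), PSMB11 (1.55) and AIRE (0.19) were called, and FOXN1 was at 6.90 in thymus and 7.19 in pancreas. KRT8 (-1.14) and CCL25 (-0.98) were not called, although another probeset of CCL25 was, by 2.58. The other probeset of PAX1 differed by -0.74. The summed linear signal of these 6 was 2009 to 2510 in thymus, 2102 to 3302 in fibroblast and 1048 to 1788 in cortex, pancreas and testis. Over the settings, 2 to 4 of the 6 were called. The part of these cells in the thymus signal of the 3 genes was not tested.

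The genes most like each probeset were taken as the 8 with the highest Pearson correlation over the 30 arrays after the mean of each center was subtracted. All the points share the same 5 RNAs and the same arrays, so the coefficients are a description. For the MmugDNA probeset of DNTT, r was 0.994 to 0.996 with TRAF3IP3, TRAT1, CD1A, LOC715904, PLAC8, RAG2, CD8B and RHOH. For the MmuSTS probeset it was 0.988 to 0.997 with PTPRC, CD1B, ARHGDIB, MYB, CD1A, CNTRL, RPIA and CXCR4. For RAG2 it was 0.995 to 0.997 with GMFG, LOC715904, TRAF3IP3, CPB2, TRAT1, CD8A, CXCR4 and RHOH. For PTCRA it was 0.994 to 0.996 with UBASH3A, SASH3, SIT1, HP, CYTIP, S100A9, CD1C and SEPTIN1.

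These genes were chosen for their likeness, so their thymus call and their next tissue follow from the choice. All were called higher in thymus, testis was the next tissue for 8 of 8 in each of the DNTT and RAG2 lists, and pancreas for 8 of 8 in the PTCRA list. The list of the MmugDNA probeset shared 4 of its 8 genes with the 8 of RAG2, and the PTCRA list shared 0 with any other. Among the probesets themselves, r over the 30 arrays was 0.994 between the MmugDNA probeset of DNTT and RAG2 and 0.970 between that probeset and PTCRA. Over the 24 arrays outside thymus these were 0.898 and 0.362, and r between RAG2 and PTCRA was 0.389.

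The nearest annotated genes on each side were also examined, named from the RefSeq table of assembly T2T-MMU8v2.0. DNTT lies between BLNK and OPALIN, and BLNK was at 7.78 in thymus and 6.91 in pancreas, a difference of 0.87 (SE 0.08). RAG2 lies between IFTAP and RAG1, and IFTAP was at 6.29 in thymus and 7.79 in fibroblast. PTCRA lies between CNPY3 and PEX39. OPALIN, RAG1, CNPY3 and PEX39 had no probeset of their own symbol and were not analysed here.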

How the data were processed

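The authors deposited log2 signals. Per their methods, background was corrected by the MAS 5.0 procedure, quantile normalization was applied within each center, and all 30 arrays were summarized by RMA. Levels can therefore differ between centers by processing as well as by hybridization. Of 52865 probesets, 24969 had 1 gene symbol in the platform annotation, 361 had several and 27535 had none listed, and names came from the former only. Values were used as deposited, in limma 3.58.1 (R 4.3.3) with terms for tissue and center, and Benjamini-Hochberg adjustment over all probesets of each contrast. No filter on low signal was applied, and RMA gives no detection calls or counts, so the number of arrays limits the precision. Scripts were tested on simulated data. Genes of the lists were named where called or where they showed the range of a list, with the probeset of highest mean signal standing for each. The members and lists were chosen with earlier results of these data known. Other normalizations, fits, filters and left-out arrays were tried. No 2 arrays were duplicates (smallest median absolute difference 0.0729).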

Additional observations from a re-analysis of the deposited data

Results flagged for a closer look

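The tissue differences of PTCRA passed the test of dependence on the center, with an interaction F of 5.45 and an adjusted p of 0.00736 (limma), as did 28.3% of all probesets. They no longer passed after quantile normalization of all 30 arrays together (adjusted p = 0.130). The step from thymus to pancreas was smaller at Yerkes, 2.98, than at Oregon (3.43) or Nebraska (3.56). The cause was not tested. In 20 groups of 6 arrays, formed by 4 probesets and 5 tissues, 0 held an array far enough from the others to pass Dixon's test. Each group holds 2 aliquots from each of 3 centers, so this test can miss an array that differs only from its partner aliquot.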

How the results depend on the processing

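The step from thymus to the highest other tissue kept its direction under every alternative run, at 4.12 to 4.41 for DNTT (24 settings), 4.02 to 4.37 for RAG2 (21) and 2.98 to 3.70 for PTCRA (22), and its call under the 22, 20 and 21 of these that gave a test. The log2 ratio of linear means and the mean of the DNTT probesets gave none. With each replicate number or thymus array left out, it was 4.17 to 4.31, 4.16 to 4.28 and 3.30 to 3.39. The filter on the upper part of mean signal removed RAG2, which was not tested under it. Quantile normalization of all 30 arrays together lowered the interaction of PTCRA to F = 2.40 (adjusted p = 0.130) and turned its step between cortex and fibroblast from 0.07 to -0.0211, and leaving out a replicate number gave -0.00173 to 0.146, none of these steps being called. For same-numbered aliquots of 2 tissues, r was -0.304 to 0.350 over 30 pairs, 3 of them over 0.1. At Oregon and Nebraska r lay between -0.0591 and 0.0935. At Yerkes, cortex deviated with testis (0.350) and thymus (0.220), and testis with thymus (0.163). Fibroblast there deviated the opposite way to cortex (-0.304), testis (-0.225) and thymus (-0.198). The numbers were not used as pairs in the main fit. With the replicate number as a block, the steps were 4.24, 4.22 and 3.33 and no call of the 3 genes changed. Without Oregon, the steps of DNTT between pancreas and fibroblast (0.13) and of RAG2 between pancreas and cortex (0.21) lost their call, the former also with a random block (adjusted p = 0.0641). Without replicate 1 the step of DNTT between pancreas and fibroblast (0.05) lost its call and that between fibroblast and cortex (0.29) gained it, and without replicate 2 the steps of RAG2 between pancreas and cortex (0.11) and of PTCRA between testis and cortex (0.26) lost theirs. Without Nebraska the step of RAG2 between cortex and fibroblast (0.24) was called. The causes were not tested. The number of listed genes called in thymus, 45, was 37 to 50 over the settings and 42 to 43 with a replicate number left out. The 37 came from the filter on the upper part of mean signal, which removes probesets without testing them. Arrays give no depth, and signal over background was not analysed here.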
